A study of Mus musculus with 9 samples.

Results

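Heat shock proteins are molecular chaperones, and 10 of their genes were followed here out of the 22337 genes listed for mouse retina. The genes were taken as a list by name: the HSP70 genes Hspa1a, Hspa1b and Hspa8, the HSP110 genes Hspa4l and Hsph1, the HSP90 genes Hsp90aa1 and Hsp90ab1, the small heat shock protein genes Hspb1 and Hspb8, and the J-domain gene Dnajb1. Earlier results of these data were known when the list was made, and all 10 were tested in every comparison. The retinas came from mice at postnatal day 28 (P28), with 3 libraries in each of 3 groups. The WT group was C57 BL/6J mice that received no treatment. The NS group was rd10 mice, whose Pde6b mutation in a rod phosphodiesterase subunit causes photoreceptor degeneration, given normal saline. The MSC-EVs group was rd10 mice given extracellular vesicles of human umbilical cord mesenchymal stem cells. The authors gave rd10 littermates either treatment, and the labels do not link libraries by litter. Each eye of the rd10 mice was injected with 1 μl at P14 and P21. WT and rd10 mice came from different suppliers and only rd10 mice were injected, so genotype, source and injection cannot be told apart in a comparison with WT. The labels give neither the sex of the mice nor the number of retinas behind a library, so p-values measure only the spread between these libraries.

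Chaperones of the HSP70 family bind unfolded stretches of protein and release them in a cycle driven by ATP. J-domain proteins such as Dnajb1 bring clients to HSP70 and start ATP hydrolysis, and HSP110 proteins reset the cycle by nucleotide exchange. HSP90 acts later, on kinases, receptors and other clients that are close to their folded state, while small heat shock proteins hold unfolded proteins without ATP. Under stress, heat shock factor 1 (HSF1) drives several of these genes through heat shock elements, which are alternating GAA and TTC units in their promoters. Rod photoreceptors fold and renew large amounts of membrane protein each day, and chaperones of these families are expressed throughout the retina.

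The sequences of the promoters show how far the members share this element. A pair of facing units, GAANNTTC or TTCNNGAA (each its own reverse complement, so both strands are covered, and the copies may overlap), was searched in the 300 bases around each RefSeq gene start (250 before, 50 after; GRCm38.p6). Entries were given for 7 of the 10 members. The pair occurred in 5 of those 7, compared with 17.0% of all 27025 genes with a window. A run of 3 alternating units (GAANNTTCNNGAA or TTCNNGAANNTTC) occurred in 1 member, Hsph1, and in 0.662% of all genes. Each line below is read on the gene's own strand, 5′ to 3′, with the matched letters in capitals. Lines are given for the members whose window held the pair. The levels of all 10 members differed between NS and WT, also of those with no line.
Hspa1a, chr17:34972242-34972271, minus strand: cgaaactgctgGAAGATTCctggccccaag
Hspa1b, chr17:34959324-34959353, minus strand: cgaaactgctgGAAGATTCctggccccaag
Hspb1, chr5:135887801-135887830, plus strand: aGAAGTTTCcagatgggggcaGAACCTTCc
Hspb8, chr5:116422844-116422873, minus strand: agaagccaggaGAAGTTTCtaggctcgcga
Hsph1, chr5:149636280-149636309, minus strand: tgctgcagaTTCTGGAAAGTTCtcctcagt

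The Hspa1a and Hspa1b lines are identical, and in both genes the matched letters start 104 bases before the gene start. Over the whole 300-base windows, 296 bases (98.7%) were the same in this pair. Hspb1 had 2 copies, starting 117 and 97 bases before its start, and the Hspb8 copy began just after its start. The printed Hsph1 run also lies after the gene start. Its copies begin at bases 37 and 42 from the upstream start listed, and at 16 and 21 from the downstream start. A further Hsph1 copy, not printed, begins 33 or 54 bases before those starts. The match is a description of letters in these windows. Hspa4l and Dnajb1 had no match there, and Hspa8, Hsp90aa1 and Hsp90ab1 were not among the entries.

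By the GENCODE M21 annotation of GRCm38, all 10 members are protein-coding genes. Hspa1a (chr17:34969190-34972156) and Hspa1b (chr17:34956436-34959238) lie on the minus strand of chromosome 17 with 9951 bases between them. Of the 50-base stretches of Hspa1a transcripts, 66.3% occur in another gene (58.8% in Hspa1b), so the split of reads between this pair is uncertain and their sum is given as well. Transcripts of other genes share 39.4% of the Hspa8 stretches, 47.5% of those of Hsp90aa1 and 50.1% of those of Hspb1. The levels of these 3 genes carry that uncertainty. For the other 5 members the share was at most 3.44%.

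The libraries held between 19491717 and 62532343 estimated counts, and MSC-EVs replicate 3 was the deepest. MSC-EVs replicates 1 and 2 carried 183 and 189 CPM of 4 Y-linked genes (CPM, counts scaled to library size with TMM factors here and throughout), and the other 7 libraries at most 0.501 CPM. The libraries held retina: rod markers summed to 77021 to 82612 CPM in WT, 15494 to 22285 CPM in NS and 16088 to 22485 CPM in MSC-EVs. Cornea and striated muscle markers summed to at most 2.21 and 5.21 CPM. Retinal pigment epithelium markers were present and uneven, at 62.3 to 112 CPM in WT, 67.6 to 276 in NS and 80.2 to 229 in MSC-EVs. Pde6b was 2502 ± 96.4 CPM (SD, n = 3) in WT, 535 ± 83.0 in NS and 594 ± 119 in MSC-EVs. The rd10 mutation changes an amino acid, so this level does not check the genotype.

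Per transcript length, 3 genes dominated. In FPKM, which scale fragments to transcript length and library depth, Hspa8 was the most abundant member in every library, between 442 and 589 FPKM. Together with Hsp90aa1 and Hsp90ab1 it made up 88.9% to 91.6% of the summed FPKM of the 10 genes. Hspa4l followed at 41.3 to 64.0 FPKM. Hsph1 and Dnajb1 lay between 17.9 and 29.6 FPKM, and Hspa1a, Hspa1b, Hspb1 and Hspb8 between 3.47 and 21.2 FPKM.

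The order of the members changed between WT and rd10 at its top and at its bottom. In WT it ran Hspa8, Hsp90aa1, Hsp90ab1, Hspa4l, Dnajb1, Hsph1, Hspa1a, Hspa1b, Hspb8, Hspb1 by mean FPKM, and only Hsph1 and Hspa1a overlapped among neighbours. NS retinas had the order Hspa8, Hsp90ab1, Hsp90aa1, Hspa4l, Hsph1, Dnajb1, Hspb1, Hspb8, Hspa1a, Hspa1b, in which only Hspb1 and Hspb8 overlapped. MSC-EVs retinas had the NS order by mean, with overlap between Hsp90ab1 and Hsp90aa1, between Hspb1 and Hspb8, and between Hspb8 and Hspa1a. Hspb1, the lowest member in WT, was thus above both inducible HSP70 genes by mean in either rd10 group.

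**Figure D1:**
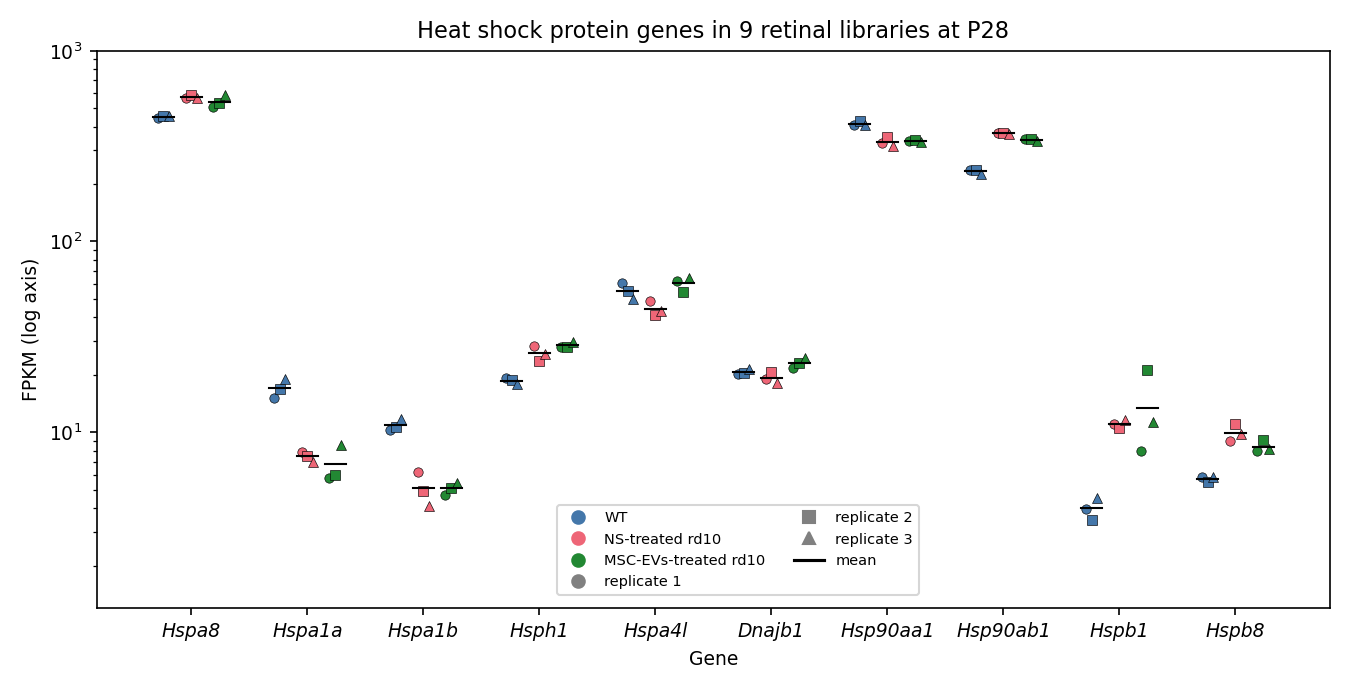
FPKM of the 10 genes (log axis) in each library, with 1 symbol per library, coloured by group, and a bar at the group mean. Hspa8, Hsp90aa1 and Hsp90ab1 sit between 225 and 589 FPKM, and Hspa1a and Hspa1b are lower in all 6 rd10 libraries than in the 3 WT libraries.

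NS-treated rd10 was compared with WT to ask how the chaperone genes stood in the degenerating retina. All 10 members passed the test (edgeR's quasi-likelihood test, Benjamini-Hochberg adjusted p under 0.05), where 61.3% of the 14644 genes tested did. In direction they divided evenly, 5 higher and 5 lower (31.2% and 30.1% of all genes), with a median log2 fold change of -0.06 against 0.01 over all genes. Hspa8, Hsph1, Hsp90ab1, Hspb1 and Hspb8 rose. Hspa1a, Hspa1b, Hspa4l, Hsp90aa1 and Dnajb1 fell. Changes of at least 2-fold were found for 3 members, Hspa1a, Hspa1b and Hspb1, and for 12.7% of all genes. In each of the 10 the NS libraries lay wholly above or below the WT libraries, as they did for 66.9% of all genes. In bulk retina, fewer cells of a type and less RNA per cell cannot be told apart.

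The inducible HSP70 genes, which encode nearly the same stress-inducible chaperone, were the members that fell most. Hspa1a stood at 48.6, 53.6 and 61.4 CPM in the WT replicates, 22.6, 21.3 and 19.6 CPM in NS, and 16.6, 17.1 and 24.8 CPM in MSC-EVs. All rd10 libraries lay below every WT library, and the rd10 groups overlapped. Its level in NS was 2.57-fold lower than in WT (log2 fold change -1.36, SE 0.09, 95% interval -1.57 to -1.16, edgeR adjusted p = 1.77e-07). A larger fall was seen in 1.68% of the genes tested.

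Hspa1b followed the same pattern at a lower level. Its values were 31.2, 32.1 and 35.8 CPM in WT, 16.8, 13.2 and 10.99 CPM in NS, and 12.6, 13.9 and 14.8 CPM in MSC-EVs. The NS level was 2.40-fold lower than in WT (log2 fold change -1.26, SE 0.14, edgeR adjusted p = 1.76e-05). Summed, the pair fell by 1.33 on the log2 scale (SE 0.10, edgeR adjusted p = 1.22e-06). Hspa1a took 55.2% to 64.1% of the pair's counts over the 9 libraries. An overlapping gene on the opposite strand of Hspa1a, Gm20481, had 0 counts in all libraries.

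Hspa8 encodes the constitutive HSP70 of the cytosol, which also uncoats clathrin vesicles. It measured 1143, 1147 and 1163 CPM in WT, 1287, 1309 and 1262 CPM in NS, and 1160, 1228 and 1369 CPM in MSC-EVs. The WT libraries were close together, the NS libraries all higher, and the MSC-EVs libraries spread across both. The rise in NS was small (1.12-fold, log2 fold change 0.16, SE 0.06, edgeR adjusted p = 0.0261), and the call was lost when WT replicate 1, 2 or 3 was left out (adjusted p = 0.0628, 0.0813 and 0.053).

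The balance within HSP70 differed between WT and both rd10 groups. Per length, Hspa8 stood 14.7- to 17.4-fold above the summed inducible pair in WT, 40.1- to 51.0-fold in NS and 41.9- to 48.3-fold in MSC-EVs. The WT range lay apart from both rd10 ranges, which overlapped each other. These ratios were not tested.

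Both HSP90 genes of the cytosol changed, in opposite directions. Hsp90aa1, the stress-responsive HSP90 alpha, measured 1295, 1349 and 1288 CPM in WT, 925, 979 and 879 CPM in NS, and 950, 971 and 949 CPM in MSC-EVs. Every rd10 library was below every WT library. NS was 1.42-fold lower than WT (log2 fold change -0.50, SE 0.06, edgeR adjusted p = 2.27e-05).

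Hsp90ab1, the constitutive HSP90 beta, measured 646, 639 and 618 CPM in WT, 896, 890 and 881 CPM in NS, and 834, 838 and 824 CPM in MSC-EVs. The 3 groups did not overlap, with NS highest. NS was 1.40-fold higher than WT (log2 fold change 0.48, SE 0.05, edgeR adjusted p = 9.87e-06).

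The ratio of alpha to beta does not depend on the scaling between libraries. In FPKM it was 1.71, 1.81 and 1.80 in WT, 0.886, 0.952 and 0.863 in NS, and 0.972, 0.992 and 0.984 in MSC-EVs. Alpha was the more abundant in WT and beta in all rd10 libraries, and the MSC-EVs ratios lay just above the NS ratios. No test was run on these ratios.

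**Figure D2:**
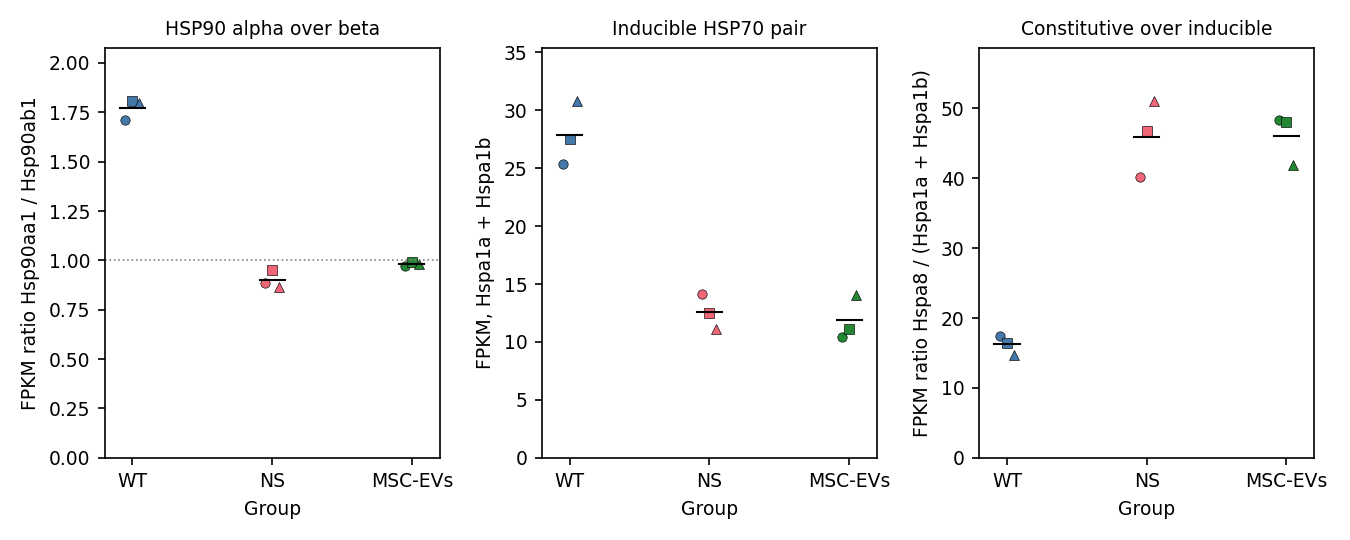
Left, FPKM of Hsp90aa1 over that of Hsp90ab1; middle, summed FPKM of Hspa1a and Hspa1b; right, FPKM of Hspa8 over that sum, per library (circle, square and triangle for replicates 1, 2 and 3), with a bar at the mean of each group of 3. The left ratio is 1.71 to 1.81 in WT and 0.863 to 0.992 in rd10, and the dotted line marks equal levels.

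The partners of HSP70 were divided. Hsph1 encodes HSP110, a nucleotide exchange factor that helps HSP70 dissolve aggregates. Its levels were 76.1, 75.2 and 71.7 CPM in WT, 99.9, 84.9 and 91.3 CPM in NS, and 102, 103 and 105 CPM in MSC-EVs. All rd10 libraries were above WT, and NS was 1.24-fold higher (log2 fold change 0.31, SE 0.07, edgeR adjusted p = 0.00202).

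Hspa4l, a related HSP110 family member, went the other way. It measured 363, 380 and 353 CPM in WT, 277, 261 and 270 CPM in NS, and 340, 309 and 335 CPM in MSC-EVs. The groups did not overlap, and MSC-EVs lay between NS and WT. NS was 1.36-fold lower than WT (log2 fold change -0.44, SE 0.06, edgeR adjusted p = 2.58e-05). Its counts per library total, with no TMM factor, divided by its FPKM follow the transcript length used. This quotient varied 1.23-fold between libraries and at most 1.04-fold for every other member, so its FPKM and its counts do not move together.

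Dnajb1 encodes the J-domain partner HSP40. It measured 65.6, 65.6 and 69.4 CPM in WT, 55.2, 59.1 and 51.5 CPM in NS, and 62.4, 66.5 and 71.6 CPM in MSC-EVs. NS was below both other groups, while WT and MSC-EVs overlapped. The fall from WT to NS was 1.21-fold (log2 fold change -0.28, SE 0.07, edgeR adjusted p = 0.00301). On the FPKM scale, where the median gene stood 0.16 (log2) higher in NS relative to WT than after TMM scaling, the difference was -0.10 and did not pass (limma on log2(FPKM + 1), adjusted p = 0.237). The other 9 members passed on that scale too, in the same directions.

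The small heat shock proteins both rose. Hspb1, which encodes HSP27 (HSP25 in mouse), a chaperone that also protects actin filaments, measured 3.86, 3.36 and 4.46 CPM in WT, 9.57, 9.07 and 9.98 CPM in NS, and 6.94, 18.4 and 9.89 CPM in MSC-EVs. All rd10 libraries were above WT, and MSC-EVs replicate 2 was far above the others of its group. NS was 2.45-fold higher than WT (log2 fold change 1.29, SE 0.14, 95% interval 0.98 to 1.61, edgeR adjusted p = 9.16e-06). It rests on 75 to 89 counts per WT library and 185 to 283 per NS library.

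Hspb8 encodes HSP22, which works with the co-chaperone BAG3 in selective autophagy of misfolded proteins. It measured 11.5, 10.6 and 11.5 CPM in WT, 15.7, 19.2 and 16.8 CPM in NS, and 14.0, 15.9 and 14.4 CPM in MSC-EVs. The rd10 libraries were again all above WT. NS was 1.53-fold higher (log2 fold change 0.62, SE 0.10, edgeR adjusted p = 0.000241).

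Retinal cell markers differed between the same libraries. All 10 rod markers fell in NS, where 30.1% of all genes fell and 31.2% rose. Of 8 cone markers 3 fell, 1 rose and 4 were not called. Among Müller glia markers 7 of 8 rose (summed level 4831 to 5131 CPM in WT, 7356 to 8533 in NS, 6772 to 6891 in MSC-EVs). All 10 microglia and macrophage markers rose (39.5 to 43.2 CPM in WT, 318 to 400 in NS, 268 to 477 in MSC-EVs), as did 7 of 8 endothelial markers (337 to 357, 557 to 625 and 562 to 662 CPM). None of these markers was at 0 in any group. The part of these shifts in the members' changes was not tested.

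MSC-EVs-treated rd10 was compared with NS-treated rd10 to ask what the vesicles changed. No member passed the test (0 of 10 by edgeR's quasi-likelihood test, adjusted p under 0.05), where 1.16% of the 14765 genes tested did. An unadjusted p under 0.05 was found for 3 members, Hspa4l, Dnajb1 and Hsph1, and for 20.2% of all genes. DESeq2 called 1 member, Hspa4l, and limma on log2(FPKM + 1) called 0. The libraries of both groups did not overlap for 4 members, Hspa4l, Dnajb1, Hsph1 and Hsp90ab1, and for 26.3% of all genes.

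**Figure D3:**
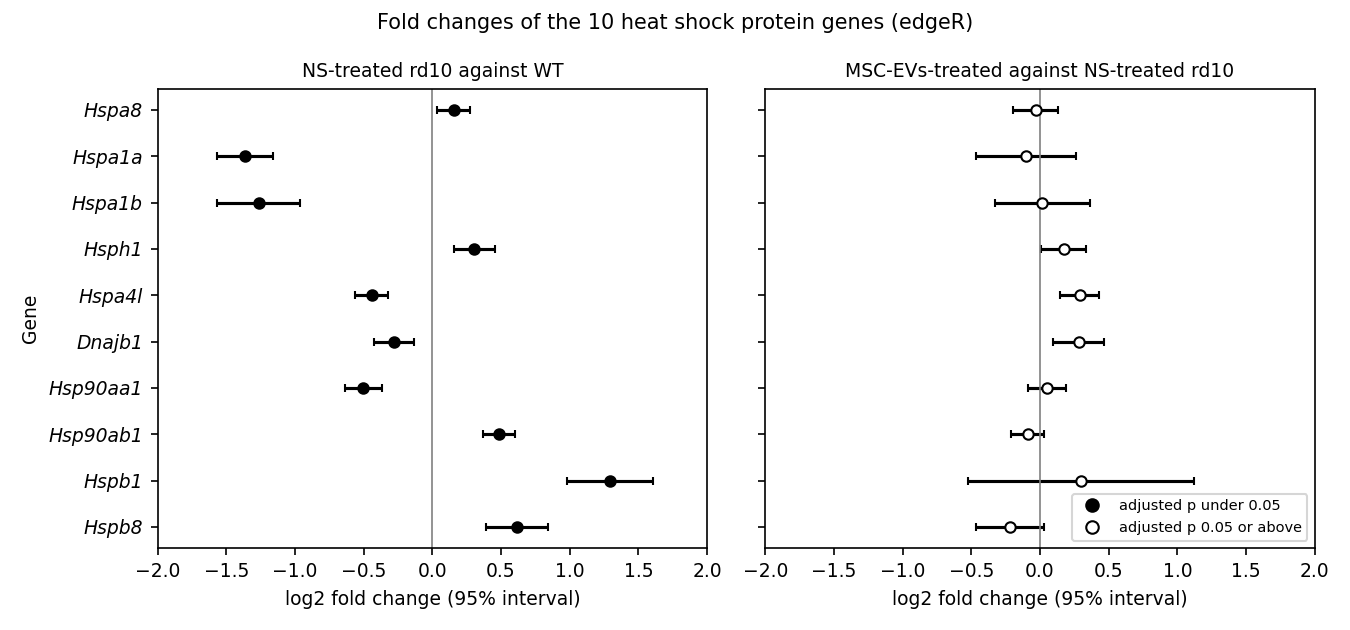
Log2 fold changes of the 10 genes with 95% intervals for NS-treated rd10 against WT (left) and MSC-EVs-treated against NS-treated rd10 (right), edgeR, 3 libraries per group, with filled points for an adjusted p under 0.05. All 10 points are filled on the left, from -1.36 to 1.29, and 0 on the right, from -0.22 to 0.30.

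Of the members, Hspa4l came nearest to a call. Its log2 fold change was 0.29 (SE 0.06, 95% interval 0.15 to 0.43, edgeR adjusted p = 0.0607), with all MSC-EVs libraries above all NS libraries. It passed with all 9 libraries in 1 fit (adjusted p = 0.0162), with DESeq2 (0.00263) and without MSC-EVs replicate 2 (0.0266). It did not pass with the Y-linked level as a covariate. In that fit the difference rests almost only on MSC-EVs replicate 3, the MSC-EVs library without high Y-linked levels. Dnajb1 differed by 0.28 (95% interval 0.10 to 0.47, edgeR adjusted p = 0.109), and passed only with all 9 libraries in 1 fit (0.0394). Hsph1 differed by 0.17 (95% interval 0.01 to 0.34, edgeR adjusted p = 0.222).

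The inducible HSP70 pair showed no detectable difference between the rd10 groups. The interval of the log2 fold change was -0.47 to 0.26 for Hspa1a (edgeR adjusted p = 0.766), -0.33 to 0.36 for Hspa1b (0.972) and -0.37 to 0.25 for their sum (0.857). The upper bound for the sum lay below the 1.33 (log2) by which WT exceeded NS. For Hspa8 the interval was -0.20 to 0.13 (edgeR adjusted p = 0.851).

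The HSP90 genes differed by 0.05 for Hsp90aa1 (95% interval -0.09 to 0.19, edgeR adjusted p = 0.697) and -0.09 for Hsp90ab1 (95% interval -0.21 to 0.03, edgeR adjusted p = 0.39). Hspb8 differed by -0.22 (95% interval -0.46 to 0.03, edgeR adjusted p = 0.307). Hspb1 had the widest interval, -0.52 to 1.12 (edgeR adjusted p = 0.676), and its difference turned from 0.30 to -0.16 when MSC-EVs replicate 2 was left out.

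MSC-EVs-treated rd10 was also set against WT, a comparison that shares the WT libraries with the first. Here 8 of 10 members passed, where 55.5% of the 14623 genes tested did. Hsp90ab1 (log2 fold change 0.40), Hspb1 (1.60), Hspb8 (0.40) and Hsph1 (0.48) were higher, as were 28.3% of all genes, and Hspa1a (-1.46), Hspa1b (-1.25), Hsp90aa1 (-0.45) and Hspa4l (-0.15) were lower, as were 27.2% (edgeR, adjusted p between 4.93e-06 and 0.0445). Dnajb1 did not pass (0.01, 95% interval -0.14 to 0.16, edgeR adjusted p = 0.937), nor did Hspa8 (0.13, 95% interval -0.02 to 0.28, edgeR adjusted p = 0.125). Hspa8 passed without MSC-EVs replicate 1 (adjusted p = 0.028) and on the FPKM scale (0.27, 0.00469). The call of Hspa4l was lost without WT replicate 1, 2 or 3 or MSC-EVs replicate 2 (adjusted p = 0.0868, 0.175, 0.0534 and 0.129), and on the FPKM scale its difference was 0.13 in the other direction. In all, 8 alternatives that kept its direction lost the call, these left-out libraries among them.

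The wider chaperone network gave the setting of these changes. It was described with 7 lists of 70 genes, of which 67 were tested between NS and WT. By edgeR 8 rose and 20 fell (28 of 67, against 61.3% of all genes), with a median log2 fold change of -0.07. This direction depended on scaling: by limma on log2(FPKM + 1), 19 of the 67 were higher and 10 lower. The median log2 fold change of all genes tested moved too, from 0.01 after TMM scaling to 0.14 on the FPKM scale. The share of all genes called on that scale is not given here. The genes named next as rising or falling kept their sign under all scalings tried. On the FPKM scale the falls were smaller, and those of Unc45a (-0.25, adjusted p = 0.0722), Dnajb2 (-0.06, 0.499) and Bag6 (-0.11, 0.204) did not pass there.

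Both heat shock factors with a call fell. Hsf1, the main activator of the inducible genes, fell by 0.48 on the log2 scale (24.7 ± 2.75 CPM in WT and 17.8 ± 0.37 in NS, SD, n = 3, edgeR adjusted p = 0.000739). Hsf2 fell by 0.41 (edgeR adjusted p = 0.000345), and Hsf4 and Hsf5 were not called. Among the other HSP70 and HSP110 genes 1 rose and 1 fell of 10, against 61.3% of all genes called. Hspa1l, the HSP70 gene next to Hspa1a, fell by 0.87, and Hspa2 rose by 0.39. The estimated counts of Hspa1l (125.17 to 392.92 per library) held decimals, so the split of its reads from other genes is uncertain. Its level carries that uncertainty in every comparison. Hspa2 did not pass without WT replicate 1 or WT replicate 3 (adjusted p up to 0.0582). The endoplasmic reticulum chaperone Hspa5 (0.13, adjusted p = 0.0994) and the mitochondrial Hspa9 (-0.05, adjusted p = 0.45) were not called in the main edgeR fit. Both were chosen for mention after their values were seen. Hspa5 was called higher with upper-quartile factors, without NS replicate 3 and on the FPKM scale (limma on log2(FPKM + 1), 0.30, adjusted p = 0.00333). On that scale Hspa9 was 0.13 higher and passed too (limma, adjusted p = 0.046).

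In each of the next 3 lists the share called was below the 61.3% of all genes (31.2% higher and 30.1% lower). Of 14 other HSP90 genes and co-chaperones, 6 fell and 1 rose. Fkbp5, an HSP90 co-chaperone induced by glucocorticoids, rose by 1.00, while Trap1, the mitochondrial HSP90, fell by 0.47 and Unc45a, a myosin chaperone, by 0.39. Among 13 other J-domain genes 4 fell, with Dnaja4 (-0.67), Dnajb12 (-0.36) and Dnajb2 (-0.31) the furthest, and 3 rose. The chaperonin list held Tcp1 and the Cct genes, whose ring in the cytosol folds actin and tubulin, and the mitochondrial Hspd1 and Hspe1. It had 5 of 10 genes lower and 0 higher, led by Cct5 (-0.41), Cct4 (-0.32) and Cct3 (-0.24). On the FPKM scale only Cct5 of these 5 passed, and 2 of them changed sign.

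**Figure D4:**
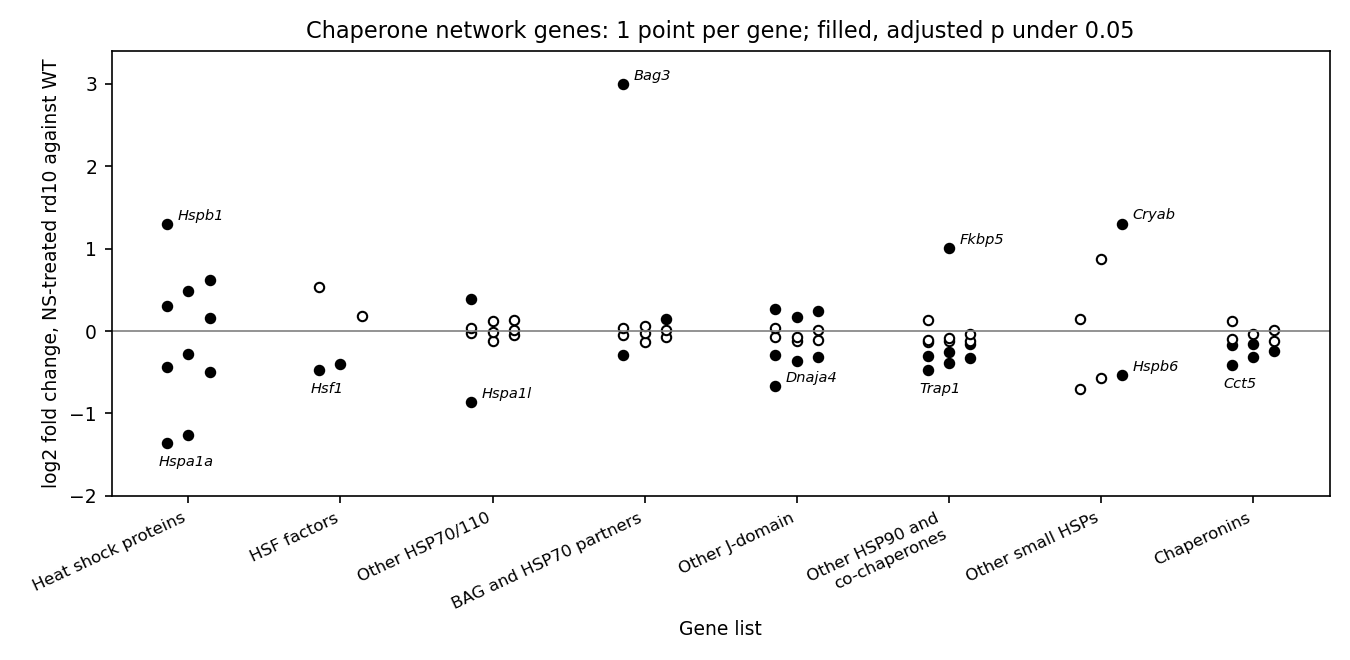
Log2 fold change of each tested gene between NS-treated rd10 and WT (edgeR), by list; each point is 1 gene and filled points have an adjusted p under 0.05. Bag3 stands alone at 3.001, and the chaperonins reach from -0.41 to 0.12.

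Bag3 had the largest change of the network. It encodes the co-chaperone that links HSP70 to small heat shock proteins, among them Hspb8. Its levels were 8.03, 8.69 and 7.61 CPM in WT, 64.2, 64.3 and 67.0 CPM in NS, and 25.7, 99.0 and 16.3 CPM in MSC-EVs. NS was far above WT with little spread (log2 fold change 3.001, SE 0.08, edgeR adjusted p = 1.31e-10), whereas the MSC-EVs libraries lay on both sides of NS. In the same group of genes Bag6 fell by 0.29 and St13 rose by 0.15. The St13 call was lost with all 9 libraries in 1 fit and without WT replicate 1 or 3 or NS replicate 1 or 3 (adjusted p up to 0.144).

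Cryab, the small heat shock protein alpha B-crystallin, measured 34.4, 49.9 and 34.0 CPM in WT, 96.6, 104 and 92.7 CPM in NS, and 81.9, 99.7 and 79.4 CPM in MSC-EVs. It rose in NS by 1.303 on the log2 scale (SE 0.14, edgeR adjusted p = 0.000113), close to the value of Hspb1, and Hspb6 fell by 0.54. Cryab is abundant in lens, and the 16 lens markers summed to 54.8 to 247 CPM in WT, 59.0 to 101 in NS and 25.7 to 184 in MSC-EVs. No lens marker was called between NS and WT. WT replicate 2 had the highest lens sum and the highest Cryab in its group, and the lowest Hspb1. MSC-EVs replicate 2 also had the highest lens sum and the highest Cryab of its group. NS replicate 2 had the highest Cryab with the lowest lens sum of its group. The part of lens in the Cryab level was not tested.

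**Figure D5:**
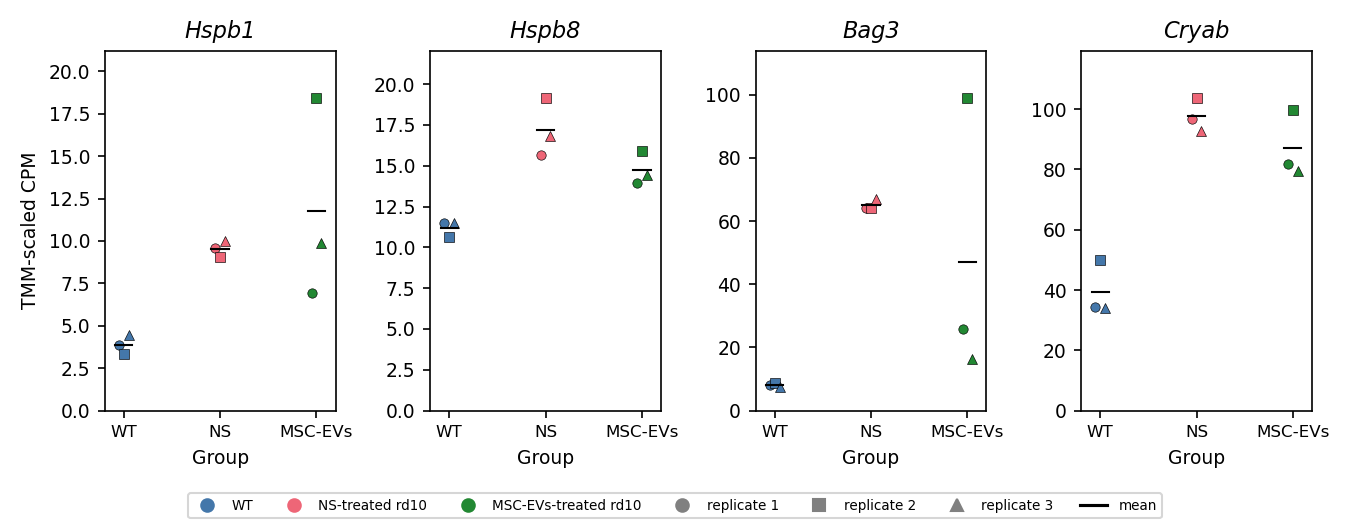
TMM-scaled CPM of Hspb1, Hspb8, Bag3 and Cryab per library (circle, square and triangle for replicates 1, 2 and 3), with a bar at each group mean. All 4 genes are higher in every rd10 library than in WT, and MSC-EVs replicate 2 is the highest of its group in each panel, at 18.4 CPM for Hspb1 and 99.0 CPM for Bag3.

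Between the rd10 groups the network gave no call (0 of 66 tested, edgeR), where 1.16% of all genes were called. Before adjustment 8 of the 66 had a p under 0.05, a smaller share than the 20.2% of all genes. DESeq2 called 2, Dnajb14 and Hspe1, both chosen for mention after their values were seen. Without MSC-EVs replicate 2, Bag3 was called (log2 fold change -1.65, edgeR adjusted p = 0.0081, against -0.49 and 0.763 with all libraries). That library was also the highest of its group in Hspb1, in the summed microglia markers (477 against 391 and 268 CPM), in the summed lens markers (184 against 25.7 and 76.8 CPM) and in 10 summed immediate-early genes (690 against 346 and 425 CPM). The part of these in its levels was not tested.

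Between MSC-EVs and WT, 30 of 65 tested network genes passed, 8 higher and 22 lower, against 55.5% of all genes (28.3% higher and 27.2% lower). On the FPKM scale 15 were higher and 10 lower. The median log2 fold change of all genes tested was 0.12 on that scale, against -0.0041 after TMM scaling. The count was 19 without WT replicate 2, 17 without WT replicate 3 and 18 without MSC-EVs replicate 1. Hspa1l (-1.11), Hsf2 (-0.44), Hsf1 (-0.46), Trap1 (-0.44), Dnaja4 (-0.73), Cct5 (-0.48) and Hspb6 (-0.53) were again lower and Fkbp5 (0.96) and Cryab (1.14) higher (edgeR, adjusted p between 3.53e-05 and 0.0164). The call of Hsf1 was lost without WT replicate 3 or MSC-EVs replicate 1 (adjusted p up to 0.0718). Bag3 was higher in all 3 libraries by 2.52 (SE 0.86) and was not called (edgeR adjusted p = 0.0632). Without MSC-EVs replicate 2 the difference was 1.35 and passed (0.000349). It also passed without MSC-EVs replicate 3, with DESeq2, with all 9 libraries in 1 fit, with the replicate block and on the FPKM scale (limma, 0.0373).

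Other genes were ranked by how closely their pattern over the 9 libraries followed that of a member, as the root mean square difference of log2 CPM after centring each gene on its mean. This was done for the 3 members that spanned at least 1 (log2) between their lowest and highest library, among 14908 genes. Nearest to Hspa1a were Skida1 (0.09), Rcvrn (0.10) and Dusp14 (0.11). Nearest to Hspa1b were Fam222a (0.09), Peli3 (0.10) and Tob2 (0.10). Efhd2 (0.23) and Lrrc32 (0.24) were among the 3 nearest to Hspb1 and followed it less closely.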

How the data were processed

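RNA-seq of retina at P28 was used from 3 WT, 3 NS and 3 MSC-EVs libraries. The authors deposited estimated counts and FPKM values of 22337 genes. The estimated counts were unscaled, and the deposited FPKM values were scaled by the authors to transcript length and depth. Per the labels, the submitters' processing notes name fastp, HISAT2, Bowtie2, StringTie 1.3.1 and RSEM. The build and annotation are not given in the sources used here. The library preparation described does not mark strand. The design had assumed counts, and since 9.16% to 11.7% of genes per library had decimals, the estimated counts were rounded.

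Each pair of groups (6 libraries) was tested with edgeR 4.0.16 in R 4.3.3 (filterByExpr defaults, TMM factors 0.920 to 1.05, robust glmQLFit, glmQLFTest), with Benjamini-Hochberg adjustment over all genes tested and a call at an adjusted p under 0.05. The SE is the absolute log2 fold change divided by the square root of F. The scripts were tested on simulated data. RefSeq promoter windows and GENCODE M21 (22232 of 22337 identifiers matched) gave sequences and positions; Python 3.11.15 was used.

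Named genes were all members, up to 3 called genes per network list with the largest change and libraries apart, Pde6b, and the 3 genes nearest to a member, of which 1 is not reported here. The members and lists were chosen with earlier results of these data known. Alternatives were DESeq2 1.42.0, limma 3.58.1 on log2(FPKM + 1) and log2(FPKM + 0.1), DESeq2 size factors, upper-quartile factors, all 9 libraries in 1 fit, no filter or a minimum of 10 counts per library, a replicate block, a Y-linked covariate, the summed Hspa1 pair, a 2-fold threshold and each library left out.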

Additional observations from a re-analysis of the deposited data

How the results depend on the processing

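Between NS and WT, the direction of all 10 members held in every alternative tried, and between 9 and 10 passed as each library was left out. A 2-fold threshold left 3 members there and 3 between MSC-EVs and WT, where leaving out a library gave 7 to 9. Between MSC-EVs and NS, 1 member passed with DESeq2, with the replicate block and with limma on log2(FPKM + 0.1), each time Hspa4l (log2 fold change 0.29, 0.29 and 0.44), 2 passed with all 9 libraries in 1 fit, and 0 to 1 passed as each library was left out. Network calls between MSC-EVs and NS moved from 0 to 2 (DESeq2), 2 (all 9 libraries), 1 (limma on log2(FPKM + 0.1)) and 0 to 1 (each library left out). Those between MSC-EVs and WT ranged from 17 to 28 as each library was left out, with 19 without WT replicate 2, 17 without WT replicate 3 and 18 without MSC-EVs replicate 1, and those between NS and WT from 22 to 30.

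Small uncalled differences between MSC-EVs and NS changed sign. Only MSC-EVs replicates 1 and 2 had high Y-linked levels. With the Y-linked covariate, the difference between MSC-EVs and NS thus rests almost only on MSC-EVs replicate 3. The summed Hspa1 pair was 0.20 with that covariate and -0.22 to 0.041 as each library was left out. Hspa1a was 0.24 with that covariate and -0.33 to 0.0032 as libraries were left out, Hspa8 0.10 and -0.11 to 0.026, Hspb1 -0.16 to 0.57, and Hspa1b -0.019 with upper-quartile factors and -0.12 to 0.19. Against WT, Hspa4l in MSC-EVs was 0.13 by limma on log2(FPKM + 1) and 0.13 on log2(FPKM + 0.1), and Dnajb1 -0.049 to 0.060 as libraries were left out. The cause was not tested.

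The replicate numbers were not taken to pair the libraries. Rd10 littermates received either NS or MSC-EVs, but no label says which libraries share a litter, and the main test used no pairing. The correlations of the deviations of same-numbered libraries from their group means were 0.024, -0.044 and -0.053 between WT and NS, 0.097, 0.165 and 0.256 between NS and MSC-EVs, and 0.094, 0.037 and 0.029 between WT and MSC-EVs. Of the 6 libraries in each comparison, 2 correlated best with their own number between WT and NS, and 6 in each of the other comparisons. The match by number was as complete between WT and MSC-EVs, whose mice came from different suppliers and share no litter, as between NS and MSC-EVs. What it reflects was not tested. With a replicate block, 9 members passed between NS and WT, 1 between MSC-EVs and NS and 7 between MSC-EVs and WT. Hspa8 did not pass between NS and WT (adjusted p = 0.0536), nor Hspa4l between MSC-EVs and WT (0.0776), and Hspa4l passed between MSC-EVs and NS (0.0464).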

Other observations

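Immediate-early genes, which stress and activity induce within minutes, were followed as a list of 10. Between NS and WT 6 rose and 1 fell (edgeR, adjusted p under 0.05, against 61.3% of all genes called). Zfp36, whose product shortens the life of cytokine mRNAs, rose by 2.32 on the log2 scale, Junb by 1.65 and Atf3 by 1.26, and Dusp1 fell by 0.39. The Dusp1 call was lost with all 9 libraries in 1 fit and on the FPKM scale (limma on log2(FPKM + 1), -0.16, adjusted p = 0.0854). Between MSC-EVs and NS none of the 10 passed (1 at an unadjusted p under 0.05, Atf3, edgeR adjusted p = 0.0851, which DESeq2 called). Fos stood at 32.5, 98.8 and 51.0 CPM in the MSC-EVs replicates, against 90.8, 80.0 and 88.7 CPM in NS. Without MSC-EVs replicate 2, Zfp36 (-1.19, adjusted p = 0.00608) and Junb (-0.50, 0.013) were lower and Atf3 (0.55, 0.037) was higher in MSC-EVs than in NS (edgeR). Fos, Zfp36, Junb, Atf3 and Dusp1 were chosen for mention after their values were seen.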
